A study of Mus musculus with 12 samples.

Results

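Clustered histone genes were followed in mouse testis: the genes of the Hist1, Hist2, Hist3 and Hist4 clusters that encode linker histone H1 or a core histone H2A, H2B, H3 or H4. They were chosen by symbol alone, as every row whose symbol begins with Hist, a cluster number and a histone class, and 65 of 20718 rows matched. Of these, 6 encode H1, 17 encode H2A, 18 encode H2B, 12 encode H3 and 12 encode H4. The Hist1 cluster on chromosome 13 holds 53 of them, the Hist2 cluster on chromosome 3 holds 9, the Hist3 cluster on chromosome 11 holds 2 and the Hist4 locus on chromosome 6 holds 1.

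Total RNA was sequenced from whole testes of F0 mice of a strain given as IRC mouse, in 4 groups of 3 libraries. In 8276OV, virus was used to overexpress the long noncoding RNA lncRNA8276 in the testis; 5NC was taken as its control. In 8276KD, virus was used to inhibit lncRNA8276; 3NC was taken as its control. What 5NC and 3NC stand for is not explained in the labels, which also give no promoter, dose, time or age and do not say which testis cells took up virus. The pairing of each treated group with its control follows the order in the design statement and is an inference, so each treated group was also set against the other control. Nor do the labels say that libraries of a group come from separate animals, so a p-value here sets a difference against the spread between these libraries alone, which may be technical. lncRNA8276 itself was not analysed here.

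Replication-dependent histone genes supply the histones that package new DNA, and are transcribed mainly in S phase. Their messenger RNAs are known to end in a conserved stem-loop in place of a poly(A) tail, bound by the stem-loop binding protein; some of these genes also make polyadenylated RNA, mostly outside S phase. In the testis, spermatogonia and early spermatocytes replicate DNA, germ cells add the testis variants H1t, TH2A and TH2B, and elongating spermatids replace most histones with transition proteins and protamines. Whether these libraries were made from poly(A) RNA is not given in the sources used.

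The stem-loop is shown because it sets this family apart from other genes. It was searched in GENCODE M21 transcripts (GRCm38) after the stop codon, as a 6-base arm that starts with GG and ends with T, a 4-base loop and the reverse complement of the arm. In each hairpin printed, capitals mark the 2 arms of the stem and lower case the loop.
Hist2h2aa1: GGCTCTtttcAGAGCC
Hist1h1t: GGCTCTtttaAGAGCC
Hist1h4h: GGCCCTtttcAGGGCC
Hist1h4a: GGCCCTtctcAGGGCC
A hairpin of this form was present in 44 members, which is 44 of the 48 with at least 50 annotated bases after the stop codon; the other 17 members have fewer bases there. The sequence shown for Hist2h2aa1 occurred in 25 members, that of Hist1h4h in 7 and that of Hist1h1t in 6, and 8 different hairpins occurred in all. The 4 with enough annotated sequence and no hairpin were the H2B genes Hist2h2be, Hist1h2bc, Hist1h2bq and Hist1h2br. In the last 100 bases of a transcript the form occurred in 22 of 65 members (33.8%) and in 3 of 21812 other protein-coding genes (0.0138%). In 17 members the longest annotated coding transcript is over 1000 bases. Of these, 13 have a hairpin, which lies 365 to 4884 bases before the annotated end (1643 bases in Hist3h2a), and 4 have none.

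Promoters are shown for the most abundant member and for the TH2B gene, since the members' start regions share motifs. RefSeq gave a promoter (GRCm38.p6, 250 bases before to 50 after the start) for 61 of the 65 members. Capitals mark the motifs searched: CCAAT and ATTTGCAT (the octamer motif) on both strands, and TATAAA on the gene's strand.
Hist2h2aa1, chr3:96245247-96245546, plus strand: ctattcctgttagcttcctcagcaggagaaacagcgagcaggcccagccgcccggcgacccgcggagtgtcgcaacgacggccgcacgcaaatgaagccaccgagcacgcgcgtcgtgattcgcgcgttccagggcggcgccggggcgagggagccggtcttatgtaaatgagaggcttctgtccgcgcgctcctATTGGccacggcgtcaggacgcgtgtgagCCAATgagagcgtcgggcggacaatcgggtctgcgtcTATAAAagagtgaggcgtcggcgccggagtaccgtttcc
Hist1h2ba, chr13:23934107-23934406, minus strand: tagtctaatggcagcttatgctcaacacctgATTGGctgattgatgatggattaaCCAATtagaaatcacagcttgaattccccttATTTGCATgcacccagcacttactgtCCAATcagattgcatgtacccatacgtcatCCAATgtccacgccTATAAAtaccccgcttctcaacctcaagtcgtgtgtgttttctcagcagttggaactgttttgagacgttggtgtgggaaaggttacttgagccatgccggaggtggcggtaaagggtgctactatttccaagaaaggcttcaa
CCAAT was found in 52 of 61 members (85.2%), against 41% of 26964 other genes. It was in every H1, H2A, H2B and H3 promoter of these, and in 3 of 12 H4 promoters. TATAAA was found in 30 of 61 members (49.2%), against 9.68% of the others. ATTTGCAT was found in 14 of 61 members (23%), against 1.92% of the others: in 7 of 17 H2A and 7 of 16 H2B promoters, and in 0 H1, H3 or H4 promoters. Hist1h2ba and Hist1h2aa, which encodes TH2A, start 280 bases apart on opposite strands, so the Hist1h2ba region printed is largely shared with the Hist1h2aa promoter. Several other H2A and H2B members also lie in divergent pairs whose promoter regions overlap. A site searched on both strands can then count for both members, so the H2A and H2B counts are partly of the same sites. These motif matches are descriptions of the sequence only.

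The members took a small share of the reads. Since poly(A) selection is not given, their share of the RNA cannot be read from this. Libraries held 15448442 to 16355720 estimated reads and 18624 to 18797 genes with a read, and the members together held 2818 to 4038 reads per library (0.0172% to 0.0256%). A floor of 3 reads stood for 0.183 to 0.194 CPM (counts scaled to a common library total), and floors cover counting error only. The tissue label held against its markers: the 6 elongating spermatid genes, Prm1 and Prm2 among them, summed to 35891 to 45726 FPKM (reads scaled to transcript length and library total) and the 7 spermatocyte genes to 3168 to 3367 FPKM per library. On the first principal component of the genes tested, 3NC replicate 2 (29.3), 8276OV replicate 3 (27.8) and 8276OV replicate 1 (20.1) stood apart. The other 9 libraries lay between −13.5 and 6.45. Since these are bulk samples, fewer cells of a type and less RNA per cell cannot be told apart.

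A few members carried nearly all of the signal. By mean FPKM over the 12 libraries, a per-length level, the H2A genes Hist2h2aa1 and Hist2h2aa2 took 66.7% of the members' sum, the first 3 members 79.6% and the first 8 members 93.4%. A mean of at least 1 FPKM was reached by 18 members and at least 10 FPKM by 6, while 25 members were under 0.1 FPKM. Hist1h2bm and Hist1h2ak had 0 reads in every library, 42 members had reads in some libraries and 21 in all 12. By class, H2A took 71.6% of the summed mean FPKM, H2B 17.9%, H4 6.31%, H3 3.02% and H1 1.23%. The Hist2 cluster, with 9 members, took 69.8%, and the Hist1 cluster, with 53, took 28.9%. By contrast, 20 replication-independent histone genes, which lie outside these clusters and include H3f3a and the spermatid linker genes Hils1 and H1fnt, summed to 2385 to 2696 FPKM per library, while all 65 members summed to 359 to 546 FPKM. Whether RNA selection, which is not given, bears on this gap was not tested.

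**Figure D1:**
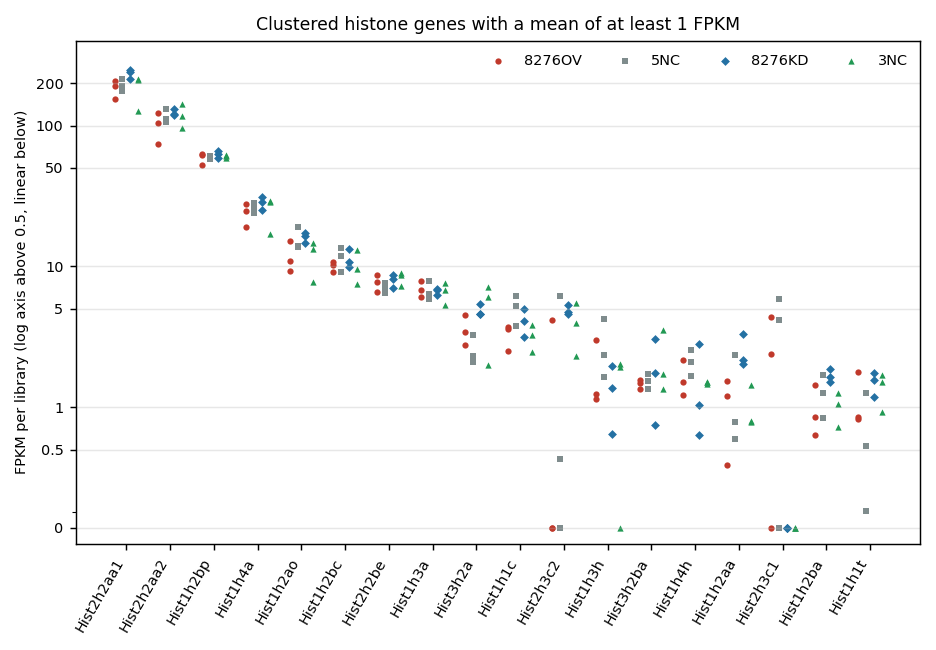
FPKM (vertical axis, logarithmic above 0.5 and linear below) of the 18 members with a mean of at least 1 FPKM, 1 point per library, with the groups side by side as 8276OV, 5NC, 8276KD and 3NC. Hist2h2aa1 and Hist2h2aa2 lie above all others, and Hist2h3c1 is at 0 in every 8276KD and 3NC library.

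Among linker histones, the somatic gene Hist1h1c, which encodes H1.2 (chromosome 13, 23738807 to 23739531, RefSeq), was the most abundant, with a mean of 3.91 FPKM and 437 reads over the 12 libraries. It had 3.58, 2.51 and 3.72 FPKM in 8276OV, 6.16, 3.78 and 5.25 FPKM in 5NC, 3.18, 5.01 and 4.11 FPKM in 8276KD, and 2.47, 3.26 and 3.84 FPKM in 3NC. The 3 libraries of 8276OV lay below the 3 of 5NC, as did 7.54% of all genes tested in normalised counts. On the FPKM scale the other groups overlapped. In normalised counts 5NC also lay above 3NC, as did 8.13% of all genes tested. The testis-specific linker gene Hist1h1t (H1t; chromosome 13, 23695811 to 23696545) was far lower, with a mean of 1.17 FPKM. It had 0.85, 0.82 and 1.78 FPKM in 8276OV, 0.53, 0.11 and 1.27 in 5NC, 1.56, 1.18 and 1.76 in 8276KD, and 1.69, 0.93 and 1.51 in 3NC. Its lowest library, 5NC replicate 2, held 1 read, and its highest held 17. Hist1h1a (H1.1) had 0.63 FPKM on average and 73 reads in all, and the other somatic linker genes were almost without reads: Hist1h1d had 5, Hist1h1b 3 and Hist1h1e 3 over the 12 libraries.

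Among H2A genes, Hist2h2aa1 (chromosome 3, 96245497 to 96246052) and its copy Hist2h2aa2 (chromosome 3, 96239779 to 96240374) stood far above the rest. Hist2h2aa1 had 207, 191 and 155 FPKM in 8276OV, 189, 216 and 177 in 5NC, 250, 239 and 215 in 8276KD, and 212, 127 and 215 in 3NC. Hist2h2aa2 had 104, 123 and 73.9 FPKM in 8276OV, 107, 112 and 131 in 5NC, 122, 118 and 131 in 8276KD, and 117, 95.4 and 142 in 3NC. The lowest library of Hist2h2aa1 was 3NC replicate 2, and that of Hist2h2aa2 was 8276OV replicate 3. Their coding sequences are the same (0 of 393 bases differ), so the split of reads between them is uncertain; Hist2h2aa1 was given 54.8% to 65.6% of the pair's reads. Hist1h2ao, another canonical H2A gene, averaged 13.8 FPKM, and 6.5% of its 50-base windows occur in no other GENCODE gene, member or not. It had 10.9, 15.1 and 9.22 FPKM in 8276OV, 19.2, 13.8 and 13.9 in 5NC, 17.1, 14.7 and 16.3 in 8276KD, and 13.2, 7.73 and 14.7 in 3NC. Hist3h2a, the H2A gene of the Hist3 cluster, averaged 4.02 FPKM. It had 4.54, 2.79 and 3.44 FPKM in 8276OV, 2.09, 3.28 and 2.3 in 5NC, 4.6, 4.62 and 5.39 in 8276KD, and 1.99, 7.11 and 6.06 in 3NC, so both the lowest and the highest value lay in 3NC. TH2A (Hist1h2aa; chromosome 13, 23934437 to 23934913) averaged 1.45 FPKM. It had 1.21, 1.53 and 0.4 FPKM in 8276OV, 0.6, 0.79 and 2.37 in 5NC, 2.15, 2.02 and 3.3 in 8276KD, and 0.8, 0.79 and 1.43 in 3NC, from 2 to 17 reads per library.

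Among H2B genes, Hist1h2bp led with a mean of 60.5 FPKM and varied little: 52.4, 62 and 63.3 FPKM in 8276OV, 60.4, 60.8 and 57.7 in 5NC, 66.5, 59.1 and 63 in 8276KD, and 60.7, 59 and 61.5 in 3NC. Its annotated span in RefSeq runs over 14079 bases of chromosome 13 (21787483 to 21801561). Hist1h2bc and Hist2h2be, both without a hairpin in their annotated transcripts, averaged 10.7 and 7.76 FPKM. Hist2h2be had 6.55, 7.76 and 8.67 FPKM in 8276OV, 7.2, 7.59 and 6.51 in 5NC, 8.2, 8.63 and 7.01 in 8276KD, and 8.72, 9.04 and 7.23 in 3NC. Every 50-base window of its transcript is found in no other GENCODE gene (100%), and its 258 to 373 reads per library are spread over 2620 bases. Hist3h2ba, the H2B gene of the Hist3 cluster, averaged 1.77 FPKM and did not pass the filter for testing. TH2B (Hist1h2ba; chromosome 13, 23933725 to 23934156) averaged 1.23 FPKM. It had 14 reads over the 3 libraries of 8276OV, 18 in 5NC, 24 in 8276KD and 14.3 in 3NC, and also stayed below the filter.

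Among H3 genes, Hist1h3a led with a mean of 6.72 FPKM and a range of 5.29 to 7.85 over the libraries. Hist1h3h averaged 1.8 FPKM and was listed at 0 in 3NC replicate 2. Among H4 genes, Hist1h4a averaged 25.8 FPKM: 27.7, 24.8 and 18.9 in 8276OV, 25.6, 24 and 28.3 in 5NC, 31, 25.2 and 28.8 in 8276KD, and 29.2, 16.9 and 28.8 in 3NC. Its lowest libraries were 3NC replicate 2 and 8276OV replicate 3. Hist1h4h averaged 1.68 FPKM and Hist1h4i 0.72 FPKM. Hist4h4, the only member of the Hist4 locus, held 6 reads over 8276OV, 8 over 5NC, 7 over 8276KD and 1 over 3NC. The 8 members at 5 FPKM or more included 6 with a hairpin, and the 57 under 5 FPKM included 38. Those of the 8 without one were Hist1h2bc and Hist2h2be. The 57 hold all 17 members with fewer than 50 annotated bases after the stop codon, none of which had a hairpin. The counts at the higher and lower level therefore cannot be compared directly. Reads cannot be assigned with certainty for many members: 31 of the 65, and 6 of the 16 tested, have under 50% of their 50-base windows to themselves.

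**Figure D2:**
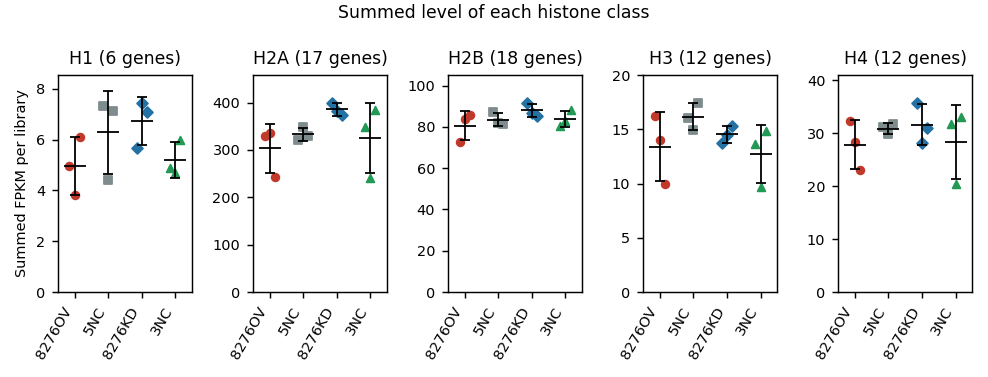
Summed FPKM of all members of each histone class (vertical axes, each from 0), 1 point per library, for 8276OV, 5NC, 8276KD and 3NC; horizontal marks and bars give the mean and SD of 3 libraries. In the H2A panel the 3 libraries of 8276KD lie between 374 and 399 FPKM, while 8276OV and 3NC each hold 1 low library, at 243 and 242 FPKM.

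The 2 H3 genes of the Hist2 cluster share a coding sequence, and their reads stood almost wholly at 1 gene or the other in each library. Why they did so was not tested. Of the 50-base windows of Hist2h3c2, 36.5% occur in no other gene, against 0% for Hist2h3c1. Hist2h3c1 (chromosome 3, 96246685 to 96247348) and Hist2h3c2 (chromosome 3, 96238479 to 96239127) differ at 0 of 411 coding bases and face away from each other on either side of the Hist2h2aa pair. Hist2h3c1 held 36, 0 and 20 reads in 8276OV, 0, 34.5 and 49 in 5NC, 0 in each library of 8276KD and 0 in each library of 3NC. Hist2h3c2 held 0, 35 and 0 reads in 8276OV, 50, 3.53 and 0 in 5NC, 38, 38 and 44 in 8276KD, and 32, 19 and 43.7 in 3NC. In 11 of the 12 libraries all of the pair's reads stood at 1 copy, and in 5NC replicate 2 nearly all did. Taken alone, the reads assigned to Hist2h3c1 were at least 27.8-fold higher in 5NC than in 3NC, against a floor of 3 reads over the group. In 8276OV they were at least 18.4-fold higher than in 8276KD. These folds describe the assignment of reads between the copies and set no bound on the level of the gene. The groups also overlapped at 0, since 5NC replicate 1 and 8276OV replicate 2 held none of these reads. Summed over both copies, the pair held 36, 35 and 20 reads in 8276OV, 50, 38 and 49 in 5NC, 38, 38 and 44 in 8276KD, and 32, 19 and 43.7 in 3NC. The 3 libraries of 8276OV lay below those of 5NC and of 8276KD, while 3NC overlapped with every other group. Of all genes, 7.54% were lower without overlap in 8276OV against 5NC, in normalised counts. That share was not computed for 8276OV against 8276KD. The summed pair had a log2 fold change of −0.59 ± 0.30 (SE) for 8276OV against 5NC (edgeR adjusted p = 0.494), 0.34 ± 0.30 for 8276KD against 3NC (adjusted p = 0.792) and 0.52 ± 0.30 for 5NC against 3NC (adjusted p = 0.485). GENCODE M21 places another gene over 23 of the 65 members, 20 of them on the other strand, and the strandedness of the libraries is not stated, so reads of overlapping or antisense genes cannot be told apart. Of the 16 tested members 6 are affected: Hist2h2aa1 overlaps Gm20633 and Gm20634, Hist2h2aa2 overlaps Gm20632, Hist2h3c1 overlaps Gm20634, Hist3h2a lies within Trim17, and Hist1h2aa and Hist1h2ao each overlap a predicted miRNA gene on the other strand.

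**Figure D3:**
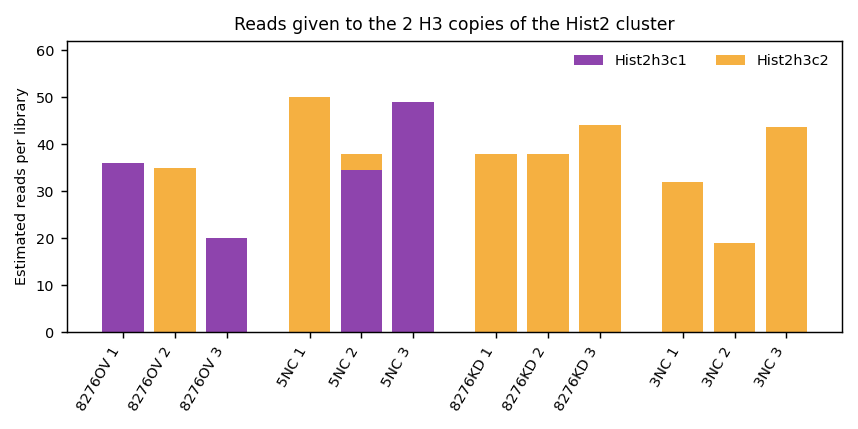
Estimated reads per library (vertical axis) given to Hist2h3c1 and Hist2h3c2, stacked, for the 3 libraries of 8276OV, 5NC, 8276KD and 3NC. Each bar is of 1 colour except 5NC replicate 2, and the summed height runs from 19 to 50 reads.

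Overexpression was compared first. With edgeR's quasi-likelihood test and Benjamini-Hochberg adjustment over all genes tested, 0 of 16 members passed at an adjusted p under 0.05 in 8276OV against 5NC (smallest adjusted p = 0.444), as did 0 of 16320 genes (0%). At an unadjusted p under 0.05 there were 1697 genes (10.4%) and 1 member, Hist1h1c. DESeq2 called 50 genes and limma with voom and sample quality weights 7, in each case with 0 members. Of the 16 tested members 5 had higher and 11 lower values in 8276OV, with a median log2 fold change of −0.20, against −0.00 over all genes. Of all genes, 49.7% had higher values. Hist1h1c had −0.62 ± 0.26 (SE; adjusted p = 0.444), and its libraries did not overlap; 1 member was lower without overlap, as were 7.54% of all genes, and 0 were higher without overlap, as were 7.62%. Against 3NC in place of 5NC, Hist1h1c had 0.04. Hist1h2ao had −0.40 ± 0.24, Hist1h1t 0.85 ± 0.57 and Hist2h2aa1 −0.08 ± 0.19. With the replicate number as a block in the 2 groups alone, 215 of 15950 genes passed (1.35%) and 0 of the 12 members tested there.

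The knockdown gave no member past the threshold either. In 8276KD against 3NC, 29 of 16320 genes (0.178%) and 0 of 16 members passed (smallest adjusted p = 0.764). Without adjustment, 979 genes (6%) and 1 member, Hist1h2aa, were under 0.05. Most members lay above zero: 14 had higher values in 8276KD, Hist2h2be a lower one (−0.06 ± 0.13), and Hist2h3c1 held no reads in either group. The median of the members was 0.12, against −0.00 over all genes, of which 49.5% had higher values. TH2A (Hist1h2aa) had 1.33 ± 0.55, Hist2h2aa1 0.37 ± 0.19 and Hist1h2ao 0.46 ± 0.24 (edgeR adjusted p = 0.764 for each). The value of Hist2h2aa1 depends on the uncertain split of reads with its copy Hist2h2aa2, which had 0.09 ± 0.18. Summed over both copies, the pair had 0.26 ± 0.17 (edgeR adjusted p = 0.769). In summed FPKM the groups overlapped, with 357 in 3NC replicate 3 and 346 in 8276KD replicate 3. Hist1h2aa and Hist2h2aa1 were the 2 members whose libraries were higher without overlap in normalised counts, as were 7.71% of all genes, and 0 were lower, as were 8.76%; on the FPKM scale Hist2h2aa1 did overlap, 3NC replicate 3 lying just above 8276KD replicate 3. Leaving out 3NC replicate 2 moved Hist2h2aa1 to 0.14 and Hist1h2ao to 0.21, while Hist1h2aa had 1.17. Against 5NC in place of 3NC, Hist1h2ao had 0.07 and Hist2h2aa1 0.29. With the filter removed, Hist4h4 had an unadjusted p of 0.0306 in the edgeR fit (adjusted p = 0.822), on 7 reads over 8276KD and 1 over 3NC. Hist1h3b had an unadjusted p of 0.0417 there (edgeR adjusted p = 0.822), with 2.55, 3.78 and 0 reads in 8276KD and 0 in each library of 3NC.

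The 2 control groups, which differ in no labelled change of lncRNA8276, were compared in the same way. In 5NC against 3NC, 59 of 16320 genes (0.362%) and 0 of 16 members passed (smallest adjusted p = 0.374), and 1972 genes (12.1%) and 2 members were under an unadjusted p of 0.05. Those 2 were Hist1h1c, at 0.66 ± 0.26, and Hist3h2a, at −0.97 ± 0.38 (edgeR adjusted p = 0.374 and 0.378). Hist1h1t had −1.11 ± 0.56 and Hist2h2be −0.25 ± 0.13. Hist2h2aa1 had 0.08 ± 0.19, and −0.14 without 3NC replicate 2. With the filter removed, Hist4h4 had an unadjusted p of 0.0194 here too (edgeR adjusted p = 0.403), on 8 reads over 5NC and 1 over 3NC. Members with higher values in 5NC numbered 10 and with lower values 6, and their median was 0.07, against 0.01 over all genes. Of all genes, 51.9% had higher values. The fitted value of Hist2h3c1, without reads in 3NC, does not bear on the members' median. Hist1h1c and Hist1h4h were higher without overlap in normalised counts, as were 8.13% of all genes, and 0 members were lower, as were 8.74%; on the FPKM scale 5NC replicate 2 and 3NC replicate 3 overlapped for Hist1h1c.

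The effects of overexpression and knockdown were also tested against each other. Of 16320 genes 10 passed (0.0613%) and 0 of 16 members (smallest adjusted p = 0.27); 2560 genes (15.7%) and 2 members were under an unadjusted p of 0.05. These were Hist1h1c, whose 8276OV effect minus 8276KD effect was −1.0 ± 0.36 on the log2 scale, and Hist1h2ao, at −0.86 ± 0.34 (edgeR adjusted p = 0.27 and 0.278). Both values rest on the inferred pairing of controls. With the other control, Hist1h1c had 0.04 in 8276OV against 3NC and −0.28 in 8276KD against 5NC. Hist1h2ao had −0.01 and 0.07 there, so opposed effects of overexpression and knockdown cannot be read from either gene. With the filter removed, 4 of 63 members were under 0.05 unadjusted, Hist4h4 and Hist1h2bg being added, and 0 passed. Without 3NC replicate 2 and 8276OV replicate 3, chosen after the data were seen, Hist1h2ao had −0.46 and Hist1h1c −1.10. Of the members 3 had a positive and 13 a negative difference, with a median of −0.41, against 0.00 over all genes.

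**Figure D4:**
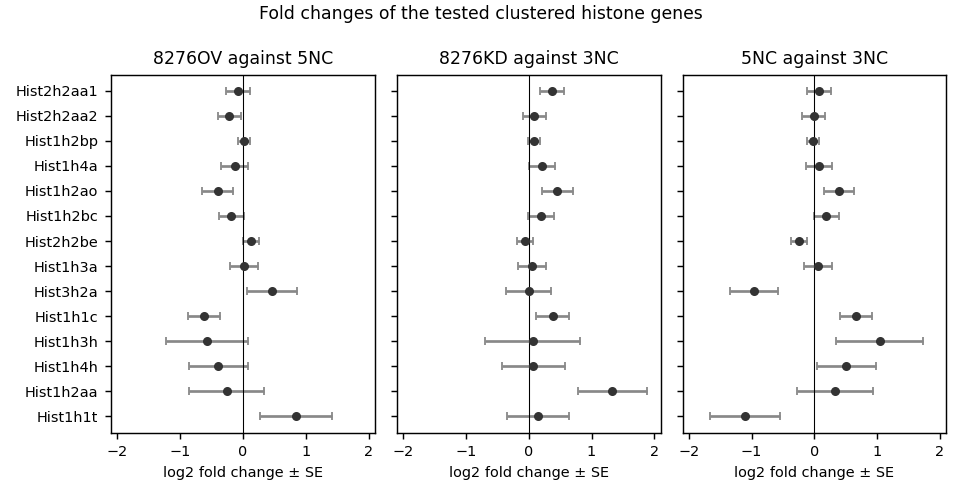
log2 fold change ± SE (horizontal axes) of 14 tested members, highest level at the top, in 8276OV against 5NC, 8276KD against 3NC and 5NC against 3NC. Hist2h3c1 and Hist2h3c2 are left out because nearly all of their reads stood at 1 copy or the other in each library. No member passed an adjusted p of 0.05, and Hist1h1c lies at −0.62 in the first panel and at 0.66 in the third.

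Single libraries stood apart for several members. In 3NC replicate 2, log2 levels relative to the mean of 12 libraries were −0.67 for Hist2h2aa1, −0.61 for Hist1h4a, −0.76 for Hist1h2ao and −0.29 for Hist2h2aa2. In 8276OV replicate 3 they were −0.37, −0.43, −0.52 and −0.63 for the same genes in that order. The tested H2B genes differed: Hist1h2bp had −0.07 in 3NC replicate 2 and 0.07 in 8276OV replicate 3, and Hist2h2be 0.21 and 0.17. The other tested H2B gene, Hist1h2bc, had −0.16 and −0.06. Among H3 genes, Hist1h3a had −0.32 and −0.15, and Hist1h3h, with few reads, −1.11 and −0.21. The members summed to 456, 466 and 368 FPKM in 8276OV, 462, 479 and 468 in 5NC, 546, 520 and 513 in 8276KD, and 480, 359 and 525 in 3NC. The 3 sums of 8276KD lay above those of 8276OV and 5NC and overlapped with 3NC. The share of all genes set apart in this way was not computed for 8276KD against 8276OV or 5NC. Without Hist2h2aa1 and Hist2h2aa2 the other members summed to 140 to 153 FPKM in 8276OV, 151 to 166 in 5NC, 163 to 175 in 8276KD and 137 to 168 in 3NC, so that 8276KD overlapped with 5NC as well. In the same 2 libraries, 17 replication-independent histone genes averaged −0.22 (3NC replicate 2) and −0.13 (8276OV replicate 3), and the 6 elongating spermatid genes −0.26 and −0.13. Tested genes outside the members, with a mean of at least 1 CPM, were also split by effective length. The 515 under 600 bases averaged −0.13 and −0.08, and the 6348 of 3000 bases or more 0.05 and 0.02. Spermatocyte genes averaged 0.12 and 0.10. The part of these shifts in the members' levels was not tested.

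**Figure D5:**
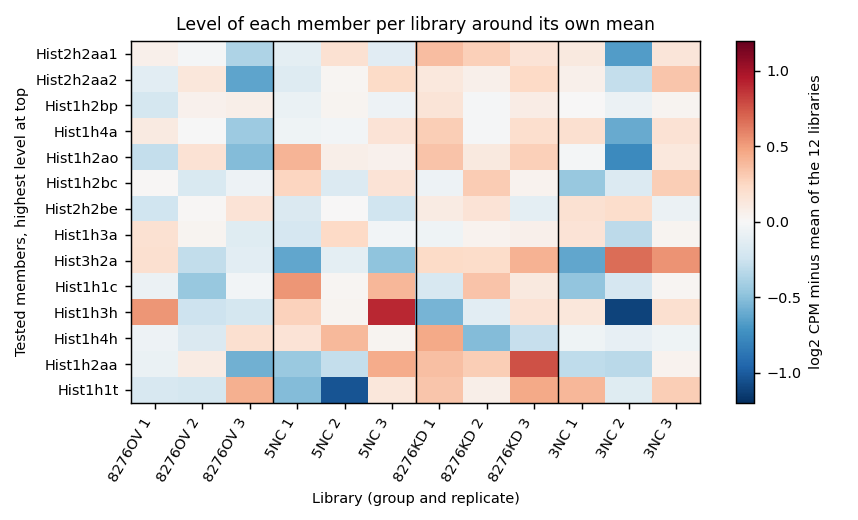
Normalised log2 CPM (with 0.5 CPM added) of 14 tested members minus each member's mean over the 12 libraries (colour, blue lower and red higher), libraries in columns by group. 3NC replicate 2 and 8276OV replicate 3 are blue for Hist2h2aa1, Hist2h2aa2, Hist1h4a and Hist1h2ao, and near white for Hist1h2bp.

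Members were compared across libraries in 45 pairs of 10 tested members with a mean of at least 20 reads. Hist2h3c1 and Hist2h3c2 were left out by name, although Hist2h3c2 also reached that mean. Each pair had 100000 permutations (2-sided), and p-values were adjusted over the 45. Hist1h1c and Hist1h2bc varied together over the 12 libraries (Pearson r = 0.83, permutation p = 0.00085, adjusted 0.0308; Spearman rho = 0.79, permutation p = 0.00337, adjusted 0.0783). Their r was 0.74 without the 2 libraries farthest from the median of Hist1h1c and 0.89 within groups. Hist1h4a and Hist2h2aa1 also had a high r (0.86, permutation p = 0.00137, adjusted 0.0308; rho = 0.60, permutation p = 0.042, adjusted 0.472). That relation rests on 3NC replicate 2 and 8276OV replicate 3, without which r was 0.36. The other 43 pairs did not pass by r, and 0 of 45 passed by rho.

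Genes that make, process, carry or replace these histones were read beside them; these lists were chosen with earlier results of the data known. In 8276OV against 5NC, 8276KD against 3NC, 5NC against 3NC and the difference of effects, 0 genes passed in any of 5 lists: 17 tested replication-independent histone genes, 22 genes of histone transcription and 3' end processing, 27 histone chaperones, 30 S phase genes and 14 genes of the histone-to-protamine transition. In 8276OV against 5NC, their median log2 fold changes were −0.05, −0.01, −0.00, −0.02 and −0.02 in that order of lists, and in 8276KD against 3NC 0.11, −0.05, −0.04, −0.05 and 0.02. Of the replication-independent histone genes 5 were higher and 12 lower in 8276OV than in 5NC, and 10 higher and 7 lower in 8276KD than in 3NC. H1f0, the linker histone of differentiated cells, had −0.31 ± 0.12 in 8276OV against 5NC (edgeR adjusted p = 0.434), and H2afj, an H2A variant gene, 0.46 ± 0.20 in 8276KD against 3NC (adjusted p = 0.764). Among processing genes, Snrpb, a core protein of small nuclear RNPs, had −0.28 ± 0.10 in 8276OV against 5NC (adjusted p = 0.423), and Casp8ap2, a histone locus body component, −0.31 ± 0.15 in 8276KD against 3NC (adjusted p = 0.764). Among S phase genes, Mcm5, a subunit of the replicative helicase, had −0.27 ± 0.10 in 8276OV against 5NC (adjusted p = 0.419), and Fen1, the flap endonuclease, 0.24 ± 0.11 in 8276KD against 3NC (adjusted p = 0.764). Psme4, the activator of a proteasome known to degrade histones in spermatids, had 0.26 ± 0.10 in 8276OV against 5NC (adjusted p = 0.419).

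Cell type markers were read beside the members, and 1 of them passed the test in any comparison. The 6 macrophage genes summed to 74.1 to 189 FPKM in 8276OV, against 30.1 to 64.2 in 5NC, with 6 of 6 higher and 0 called. In the same comparison 0 of 6 Leydig genes (median −0.54), 0 of 5 peritubular genes (−0.47) and 1 of 10 Sertoli genes (−0.19) had higher values. In 8276KD against 3NC, 4 of 4 erythrocyte genes had higher values (median 0.83) and 5 of 5 endothelial genes did (0.25). The 6 round spermatid genes had medians of 0.03 in 8276OV against 5NC and 0.01 in 8276KD against 3NC. In 5NC against 3NC, 10 of 10 Sertoli genes had higher values (median 0.27). The 4 epididymis genes in the table summed to 15.2 to 102 FPKM in 5NC, against 1.19 to 7.41 in 3NC; Spink8 was the 1 marker called there (3.79 ± 0.63, edgeR adjusted p = 0.0333). The 6 elongating spermatid genes had a median of −0.04 in 8276OV against 5NC and 0.13 in 8276KD against 3NC, with 6 of 6 higher in 8276KD and 0 called. The 7 spermatocyte genes had medians of 0.01 and −0.05 in those comparisons, and the 6 tested spermatogonia genes −0.21 and −0.04, with 0 called. None of the markers was at 0 in all libraries, and their part in the members' values was not tested.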

How the data were processed

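RNA of whole mouse testis was measured in 12 libraries, 3 per group, with replicate numbers from the titles. The authors deposited 1 table with expected counts per gene, unnormalised, and normalised values whose unit, FPKM, was inferred here: over 5204 genes above 500 reads, the deposited FPKM per read scaled inversely with library totals, with a median spread of 0.528%. Of the expected counts 88% were whole within 1e-06; they were rounded for testing. The build was mm10, per the submitters' processing notes; the aligner, counter, annotation and strandedness are not given in these sources. A further 18 per-sample columns match no library of the series and were not used.

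Counts were tested in R 4.3.3 with edgeR 4.0.16 (TMM, filterByExpr with minimum count 10 and total 15, robust quasi-likelihood, 1 fit of 4 groups, no covariates). The filter left 16320 genes and 16 members, and 49 members fell below it. Shares and medians of fold changes given for all genes are of the genes tested. SE was derived from the fold change and its F statistic, and is approximate for few reads. The common biological coefficient of variation was 0.13. The fit was tested on simulated data. DESeq2 1.42.0 and limma 3.58.1 were alternatives. Same-numbered libraries correlated in their deviations from group means by 0.18, 0.17 and 0.14 in 8276OV with 5NC, over the 0.1 taken as pairing; the pairing is inferred from these data. In 8276KD with 3NC the values were 0.02, 0.04 and 0.04, and in 5NC with 3NC −0.03, −0.01 and 0.02.

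Members and lists were chosen with earlier results of these data known. Named members are the testis variants, somatic H1 genes, Hist3 and Hist4 members, the 3 highest of each core class and the 3 of smallest p per comparison; of list genes, those called or among the 2 of smallest p. Coordinates come from RefSeq (GRCm38.p6).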

Additional observations from a re-analysis of the deposited data

How the results depend on the processing

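In the alternatives run, 25 each for 8276OV against 5NC and 8276KD against 3NC, 24 for 5NC against 3NC and 22 for the difference of effects, 0 members passed the threshold. The difference was not run with 2-group fits, which hold too few groups for it, or with the controls exchanged. Of 1490 alternative log2 fold changes of the 16 tested members 0 passed, and 98 had the other sign. The count of all genes called did move. In 8276OV against 5NC it was 0, against 50 with DESeq2, 7 with limma voom and sample weights, 215 with the replicate block in the 2 groups alone, 52 against the other control group and 36 without 8276OV replicate 3 and 3NC replicate 2. In 8276KD against 3NC it was 29, against 71 with DESeq2, 106 with voom, 16 with limma on log2(FPKM + 0.1), 77 with the 2-group block, 8 against the other control and 18 without those 2 libraries. In 5NC against 3NC it was 59, against 148, 134 and 31 with DESeq2, voom and limma on FPKM, and 94 with the 2-group block. The difference of effects gave 10, against 96, 53 and 6 with the same 3 tools. With the replicate block in the fit of all 4 groups the counts were 0, 22, 50 and 13 in that order of comparisons. Leaving out 1 library at a time gave 0 to 5, 10 to 34, 16 to 76 and 4 to 23. The causes were not tested. Copies with the same coding sequence, summed as an alternative added after seeing the data, also gave 0 members called. Depth limits the low members: 30 of 65 had 10 or fewer reads over 12 libraries.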
